A study of Mus musculus with 12 samples.

Results

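Interferon-stimulated and MHC class I genes were examined in primary oligodendrocytes (OLs) that received an siRNA against the transcription factor Egr2 (siEgr2) or a scrambled control siRNA (siNC). The group holds 39 genes chosen by name, of which 38 have a row in the count table of 56860 named genes and 34 had enough counts to be tested. The entry Ddx58, an RNA sensor, is absent under that symbol and is taken up below. RNA-seq was performed on 6 siNC and 6 siEgr2 libraries of C57BL/6J cells, harvested 48 h after transfection. The methods describe O4-positive immature OLs captured with anti-O4 beads from newborn mouse cortex and then matured in culture, while the labels give the medial prefrontal cortex as the tissue. The methods call the reagent both an siRNA and an interference plasmid. Both groups had been transfected, and no untransfected cells or interferon-treated cells were among the samples. The sources used here do not say whether the libraries of a group came from separate cultures or animals. The p-values thus set a group difference against the spread between these libraries, which may be technical.

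Type I interferons signal through the receptor chains Ifnar1 and Ifnar2 and the kinases Jak1 and Tyk2 to a complex that holds Stat2 and Irf9. This complex binds the interferon-stimulated response element (ISRE), which is found in the promoters of many interferon-stimulated genes. Interferon gamma acts through the gamma-activated site (GAS), and induces the guanylate-binding proteins, the immunoproteasome and the peptide transporter of the MHC class I pathway. MHC class I molecules consist of a polymorphic heavy chain, here H2-K1 or H2-D1, and the light chain B2m, and they present peptides that the proteasome produces and that Tap1 and Tap2 carry into the endoplasmic reticulum. In the healthy brain, glia hold these genes at a low level and raise them in infection and inflammation.

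The response element was looked for in the promoters of the members. RefSeq promoters of 300 bases on GRCm38, from 250 before to 50 after the start, were at hand for 31 members. The ISRE was searched as 2 copies of GAAA with 2 bases between them, on both strands. It was found in 16 of the 31 members (51.6%), against 3.99% of all 27025 genes with a promoter. The GAS, searched as TTCNNNGAA, was found in 9 members (29.0%), against 9.55% of all genes. Such a match is a string of letters and not a measured binding site. The stretches below belong to members on which the results turn. They are printed on the strand of the gene, with the ISRE in capitals.
Gbp2 (chr3:142620594-142620623, plus strand): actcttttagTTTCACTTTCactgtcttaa
Gbp3 (chr3:142559989-142560018, plus strand): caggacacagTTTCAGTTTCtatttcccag
Gbp7 (chr3:142530273-142530302, plus strand): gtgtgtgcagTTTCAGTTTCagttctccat
B2m (chr2:122147538-122147567, plus strand): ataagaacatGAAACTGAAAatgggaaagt
Ifit1 (chr19:34640794-34640823, plus strand): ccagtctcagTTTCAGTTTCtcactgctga
Isg15 (chr4:156200865-156200894, minus strand): aaaggaaaccGAAACAGAAAatagctctgg
Stat2 (chr10:128270266-128270295, plus strand): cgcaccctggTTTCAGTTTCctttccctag

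The 3 guanylate-binding protein genes are neighbors on chromosome 3 and all carry the element near the RefSeq start, at 59 bases upstream of it for Gbp2, 45 for Gbp3 and 53 for Gbp7. Gene positions given below are those of GENCODE M21, whose models can start elsewhere, and for Gbp2 the element lies just inside that model. The promoters of H2-K1, H2-D1, Tap1 and Psmb9 did not hold these letters for the ISRE within the 300 bases. Parp14 and Tap2 are among the members with no promoter in the table.

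The siNC libraries held 28682946 to 39383014 counts each and the siEgr2 libraries 8034251 to 16683677, with no overlap. Ribosomal RNA read as Rn18s-rs5 took 0.142% to 1.05% of the counts in siNC and 10.5% to 16.5% in siEgr2, again with no overlap, so depth, ribosomal RNA share and treatment cannot be told apart. Egr2 itself had a mean of 5.35 ± 1.27 CPM in siNC and 3.77 ± 1.01 CPM in siEgr2 (SD, n = 6 each), with overlapping ranges and an adjusted p of 0.0981. CPM stands for the counts of a gene scaled to library size with TMM factors, and every adjusted p is that of edgeR (quasi-likelihood F-test, Benjamini-Hochberg over the 16600 tested genes). A call required both an adjusted p below 0.05 and a log2 fold change beyond 0.5 in either direction. The cells carried the myelin marker Mbp (1830 CPM in siNC) and also astrocyte markers (Gfap at 4777 CPM).

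Of the 34 tested members, 4 were called lower in siEgr2 and 0 were called higher. The genes that fell were Gbp2, a guanylate-binding GTPase, Tap2, a chain of the peptide transporter, H2-K1, a class I heavy chain, and Parp14, an ADP-ribosyltransferase. At an adjusted p under 0.05 alone, 6 members passed, with 5 lower and 1, Tap1, higher. The tested antiviral genes of the IFIT, Mx and OAS families were not called in either direction, nor were Isg15, Rsad2 and Bst2. The 4 genes make up 11.8% of the tested members, where 5.08% of all tested genes were called lower, 2.63% higher and 7.72% in either direction. On the adjusted p alone, 14.7% of the members were lower, where 11.3% of all tested genes were lower and 19.9% passed in either direction. In 4 members every siEgr2 library lay below every siNC library, which is 11.8% of the tested members and was seen in 7.0% of all tested genes. The members' log2 fold changes ran from -1.11 to 1.17 with a median of -0.10, while the median over all tested genes was 0.0046. Of the 34 members, 21 had a negative fold change. With 1 library left out at a time, this count ran from 18, without siEgr2 replicate 6, to 28, without siEgr2 replicate 3. Over the fits that left out 1 library, the members' median ranged from -0.21, without siEgr2 replicate 3, to -0.03, without siEgr2 replicate 6. Scaling by library size alone moved the median of all genes to -0.18 and that of the members to -0.28, with 29 of the 34 negative.

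**Figure D1:**
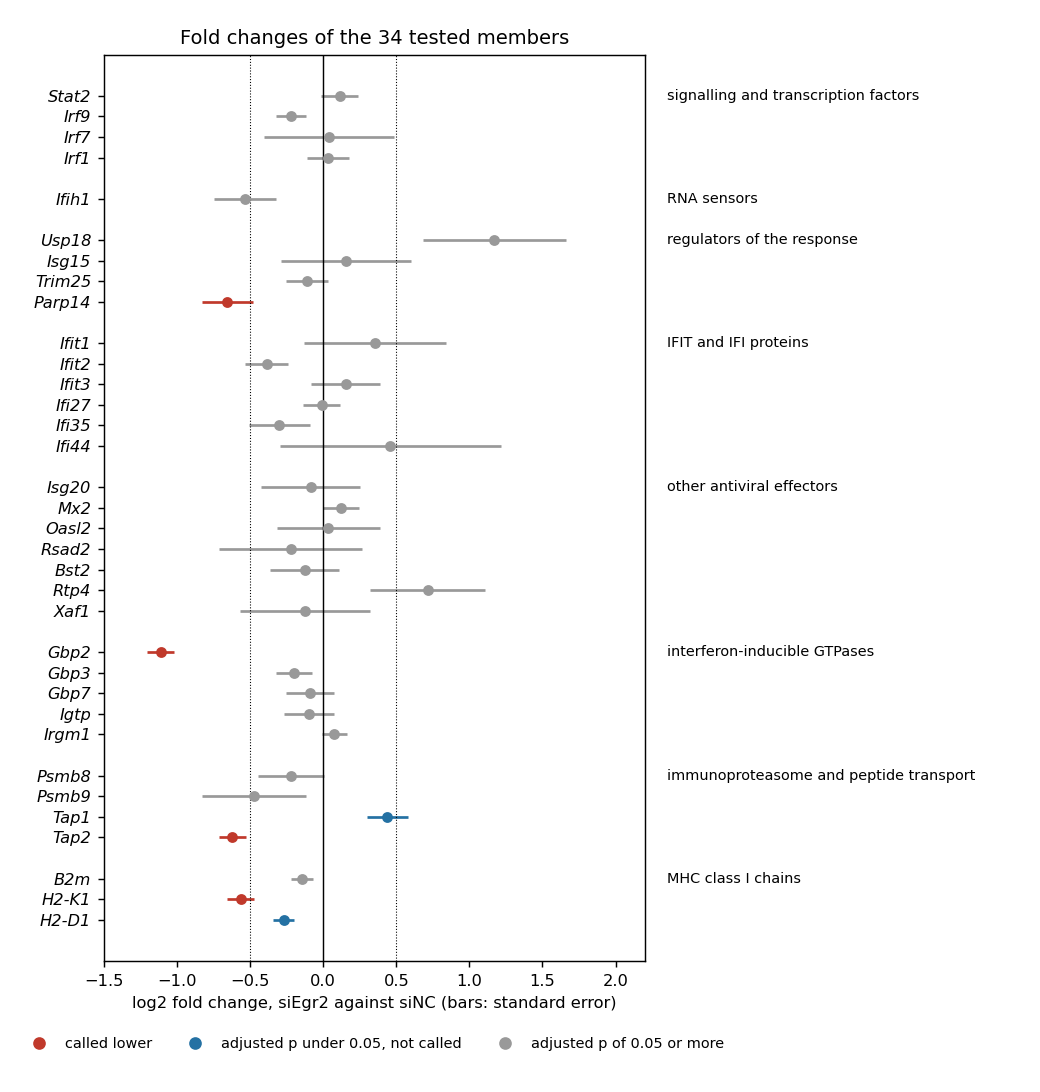
Log2 fold change of siEgr2 against siNC (horizontal axis) for the 34 tested members, grouped by role, with standard errors as bars and the threshold of 0.5 in either direction as dotted lines. The 4 called members, Gbp2, Tap2, H2-K1 and Parp14, lie to the left of the threshold, as does the uncalled Ifih1, and Usp18 and Rtp4 lie to the right with wide errors.

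Of the class I chains H2-K1 was called lower, H2-D1 passed the adjusted p alone and B2m did not pass the test. H2-K1, on chromosome 17 from 33996017 to 34000347, had a lowest, median and highest level of 35.8, 39.1 and 45.8 CPM in siNC. In siEgr2 these were 22.5, 27.1 and 34.1 CPM. The groups did not overlap, and H2-K1 fell by 0.57 on the log2 scale (standard error 0.093; adjusted p = 3.74e-04, edgeR). H2-D1, at 35262730 to 35267499 on the same chromosome, had 48.7, 55.4 and 60.4 CPM in siNC and 40.2, 44.5 and 53.9 CPM in siEgr2. Its log2 fold change of -0.27 (standard error 0.073) passed the adjusted p (0.0142, edgeR) but not the fold threshold, and the groups overlapped. B2m, the shared light chain, had 53.1, 63.3 and 70.1 CPM in siNC and 51.0, 56.4 and 66.9 CPM in siEgr2. The difference of -0.15 on the log2 scale had an adjusted p of 0.205 in edgeR's test.

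Per kilobase of exon, B2m was the most abundant member, with a mean level of 73.3 CPM per kilobase in siNC. It was followed by H2-D1 at 21.4, Ifi27 at 15.2, H2-K1 at 13.8 and Gbp2 at 12.3. The length counts all annotated exons of a gene and can exceed that of the transcript sequence. For Irgm1 these lengths were 5810 and 2259 bases, and for H2-K1 2938 and 1619 bases. The order below B2m depends on this choice of length. In siEgr2 the mean level of Gbp2 was 5.66 and that of H2-K1 was 9.32 CPM per kilobase of exon. Some of these reads could belong to near copies. In the transcripts of GENCODE M21, 8.79% of the 50-base stretches of H2-K1 and 14.3% of those of H2-D1 also occur in another gene, among them H2-D1 for the former and H2-Q1 for both. For B2m this was 0%.

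Tap1 and Tap2, which pair to form the transporter, went in opposite directions. Tap2, on chromosome 17 from 34203527 to 34216321, had a lowest, median and highest level of 19.6, 23.4 and 25.0 CPM in siNC. In siEgr2 the level was 12.9, 14.6 and 17.1 CPM, with no overlap. On the log2 scale it fell by 0.62 (standard error 0.091) at an adjusted p of 1.35e-04 (edgeR). Tap1, at 34187553 to 34197225, had 7.72, 8.48 and 9.56 CPM in siNC and 7.33, 12.3 and 13.7 CPM in siEgr2, where replicate 1 was the lowest of all 12 libraries and the other 5 lay above every siNC library. The difference of 0.44 on the log2 scale (standard error 0.14) had an adjusted p of 0.0351 in edgeR's test and lay under the fold threshold, and without siEgr2 replicate 1 it was 0.54 and Tap1 was called higher. Tap1 passed the adjusted p in 10 of 23 alternative fits. Within each library, where no scaling enters, the ratio of Tap1 to Tap2 counts was 0.327 to 0.488 in siNC and 0.568 to 1.01 in siEgr2. This ratio and 3 others were chosen after the values were seen and are given as a description, with no test. The exons of Tap1 overlap those of Psmb9 over 212 bases on the opposite strand, and 533 bases of Tap2 overlap the gene model Gm15821, so reads there cannot be told apart without strand.

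Psmb8 and Psmb9, the catalytic immunoproteasome subunits next to the transporter genes, did not pass the test. Psmb8 had a log2 fold change of -0.22 and Psmb9 of -0.48, the latter on 8 to 23 counts per siEgr2 library. Each siEgr2 level overlapped the siNC range, with 1.85 to 4.61 against 2.75 to 4.53 CPM for Psmb8.

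**Figure D2:**
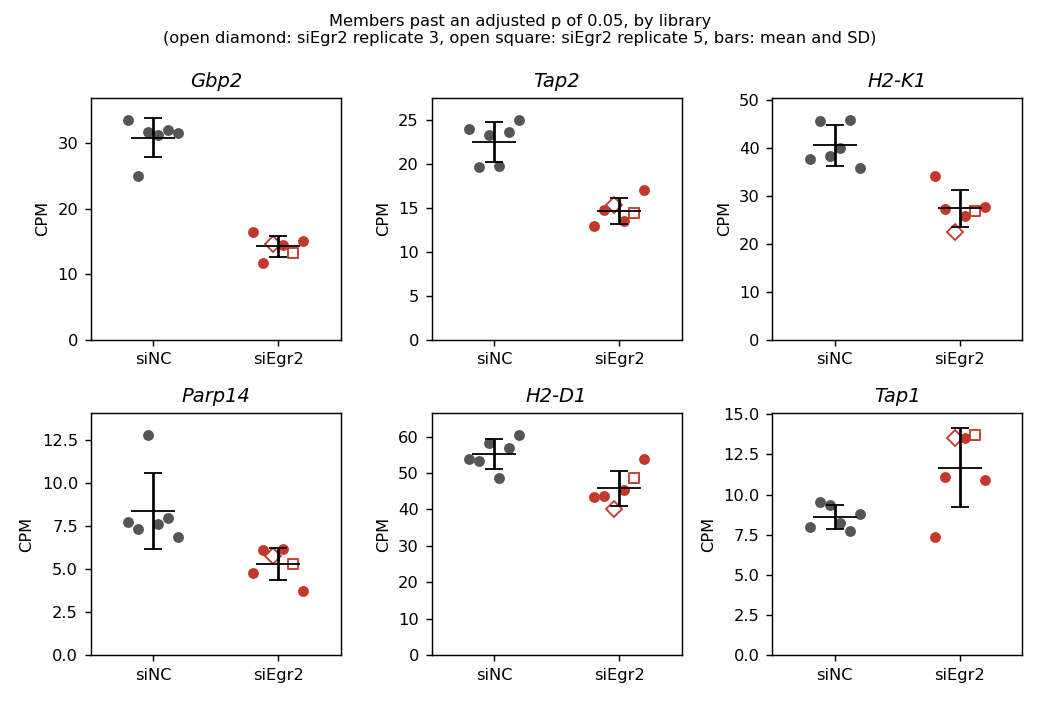
CPM (vertical axis, from 0) of the 6 members with an adjusted p under 0.05, in each of 6 siNC and 6 siEgr2 libraries, with mean and SD as bars. Gbp2, Tap2, H2-K1 and Parp14 separate the groups, H2-D1 overlaps, and Tap1 is higher in all siEgr2 libraries except replicate 1.

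Of the 5 interferon-inducible GTPases among the members, Gbp2 was called. Gbp2, on chromosome 3 from 142620602 to 142638008, had a lowest, median and highest level of 25.0, 31.6 and 33.6 CPM in siNC and of 11.7, 14.5 and 16.4 CPM in siEgr2. The groups were far apart, and siNC was 2.16-fold higher, a log2 fold change of -1.11 (standard error 0.092, adjusted p = 5.11e-07 in edgeR's test), the largest fall among the members. Its neighbor Gbp3 ranged from 22.2 to 28.7 CPM in siNC and from 15.8 to 29.8 CPM in siEgr2 (log2 fold change -0.20, adjusted p = 0.293 in edgeR's test). Gbp7 had a log2 fold change of -0.089 (adjusted p = 0.762, edgeR). The ratio of Gbp2 to Gbp3 counts within a library was 0.951 to 1.43 in siNC and 0.491 to 0.850 in siEgr2. All 3 promoters carry an ISRE, as printed above. The immunity-related GTPases Igtp and Irgm1, which act on intracellular pathogens and in autophagy, had log2 fold changes of -0.097 and 0.075, and Irgm1 lay between 43.2 and 63.7 CPM in all 12 libraries. Of the 50-base stretches, 2.07% are shared for Gbp2, 4.79% for Gbp3, 12.8% for Gbp7 and 12.3% for Igtp.

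The ratio of H2-K1 to B2m counts had a median of 0.639 in siNC and 0.469 in siEgr2, and the ratio of H2-K1 to H2-D1 of 0.754 and 0.563. Both ratios overlapped between the groups.

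The regulators of the response held 1 called gene. Parp14, on chromosome 16 from 35832874 to 35871544, had 6.82, 7.66 and 12.8 CPM as the lowest, median and highest level in siNC, and 3.70, 5.50 and 6.13 CPM in siEgr2. All siEgr2 libraries lay below all siNC libraries. Parp14 fell by 0.66 on the log2 scale (standard error 0.17) at an adjusted p of 0.0124 (edgeR), and without siNC replicate 3, which holds the highest level, it was -0.49 and Parp14 was no longer called. Usp18, the protease that removes Isg15 from proteins and dampens receptor signaling, had the highest fold change of the members. Its lowest, median and highest level was 0.336, 0.522 and 1.45 CPM in siNC and 0.449, 0.992 and 3.33 CPM in siEgr2, with a log2 fold change of 1.17 (standard error 0.49, adjusted p = 0.108 in edgeR's test) on 6 to 39 counts per siEgr2 library. Usp18 was called higher without siNC replicate 3, at 1.56. Isg15, the ubiquitin-like modifier, was at 0.439 to 1.84 CPM in siNC and 0.523 to 3.33 CPM in siEgr2, and Trim25, a ubiquitin ligase that acts on the RNA sensor Rigi, at 11.8 to 14.1 and 9.21 to 18.4 CPM. Neither passed the test (log2 fold change 0.16 and -0.11).

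The signaling and transcription factors had 0 calls among 4. Stat2 was at 26.8, 30.1 and 33.6 CPM in siNC (lowest, median, highest) and at 24.5, 31.4 and 47.2 CPM in siEgr2, with a log2 fold change of 0.11 (adjusted p = 0.599, edgeR). Irf9, its DNA-binding partner, was at 14.7 to 19.0 CPM in siNC and 11.8 to 16.7 CPM in siEgr2 (log2 fold change -0.22, adjusted p = 0.151, edgeR). Irf7, the factor that amplifies interferon production, stayed near 1 CPM, at 0.381 to 1.92 in siNC and 0.487 to 2.05 in siEgr2. Irf1, a factor that responds to interferon gamma, was at 9.15 to 18.5 CPM in siNC and 14.3 to 18.5 CPM in siEgr2 (log2 fold change 0.034, adjusted p = 0.899, edgeR). The groups overlapped in all 4.

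Of the RNA sensors, Ifih1 was at 3.54, 4.33 and 4.90 CPM in siNC and at 1.98, 2.65 and 4.87 CPM in siEgr2, where 4 libraries lay below every siNC library and replicate 6 was near the top of the siNC range. Its difference of -0.54 on the log2 scale (standard error 0.21) had an adjusted p of 0.0875 in edgeR's test, and Ifih1 was called lower in 3 of 23 alternative fits: library size alone, limma-voom and the fit without siEgr2 replicate 6. The symbol Ddx58 stands for the sensor RIG-I, and the table has a row Rigi, the current symbol of that gene, which was matched by name after the files were seen. Rigi was at 11.5 to 16.9 CPM in siNC and 10.1 to 14.9 CPM in siEgr2 (log2 fold change -0.22, adjusted p = 0.232, edgeR).

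The IFIT and IFI genes, whose IFIT products bind viral RNA, had 0 calls among 6, with 3 positive and 3 negative fold changes. Without siEgr2 replicate 3, 6 were negative. Without siEgr2 replicate 1, 2 or 6, or without siNC replicate 2 or 5, the signs moved the other way, to 2 negative and 4 positive. Ifit2 was at 14.6 to 22.6 CPM in siNC and 8.77 to 17.3 CPM in siEgr2 (log2 fold change -0.39, adjusted p = 0.0756, edgeR), and it was called lower when scaled by library size alone, at -0.57. Ifit1 was at 1.16, 1.40 and 2.03 CPM in siNC and at 0.374, 1.11 and 5.13 CPM in siEgr2 (log2 fold change 0.35, standard error 0.49, and -0.32 without siEgr2 replicate 3). Ifit3 was at 4.71 to 7.90 and 4.0 to 10.9 CPM, and 51.2% of its 50-base stretches also occur in Ifit3b, so its counts are uncertain. The mean of Ifi27 was 22.3 ± 1.92 CPM in siNC and 22.2 ± 5.24 CPM in siEgr2 (SD, n = 6). Ifi35 had a log2 fold change of -0.30 and Ifi44 of 0.46 (-0.14 without siEgr2 replicate 3), the latter on at most 44 counts in any library.

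Of 11 other antiviral effectors, 7 were tested and 0 were called. Mx2, which the annotation lists as a polymorphic pseudogene, was at 6.57 to 9.16 CPM in siNC and 6.53 to 9.48 CPM in siEgr2. Bst2, which tethers budding virus to the cell, was at 5.51 to 7.81 and 2.92 to 11.4 CPM. Rtp4 had a log2 fold change of 0.71 (standard error 0.40, adjusted p = 0.234 in edgeR's test), with 0.703, 1.89 and 2.45 CPM as the lowest, median and highest level in siNC and 0.977, 2.57 and 5.38 CPM in siEgr2. Oasl2 (0.034), Rsad2 (-0.22), Xaf1 (-0.12) and Isg20 (-0.087) did not pass on their log2 fold changes. The genes Mx1, Oas1a, Oas2 and Oas3 had at most 16 counts in any library and were left out by the filter. Single members were also compared with a two-sided exact permutation test on log2 of CPM plus 0.5, and 8 of 34 (23.5%) had an unadjusted p under 0.05, where 32.1% of all tested genes did.

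Within the siEgr2 group, replicates 3 and 5 stood above the other 4 libraries for many antiviral members and not for the class I heavy chains. This pair was picked for these levels, so the counts that follow only describe it. Replicate 3 was the highest siEgr2 library in 13 of the 34 tested members (38.2%), against 15.4% of all tested genes, and replicate 3 or 5 was the highest in 25 (73.5%), against 33.0%. Ifit1 was at 5.13 CPM in replicate 3 and 3.07 CPM in replicate 5, and between 0.374 and 1.14 CPM in the other 4. Oasl2 was at 7.41 and 5.89 CPM in the same pair of libraries, and between 1.14 and 3.89 CPM in the rest, while every siNC library lay between 3.15 and 4.29 CPM. Usp18 was at 2.41 and 3.33 CPM in this pair, and Ifi44 at 2.10 and 1.92 CPM, where both genes stayed at or below 1.01 CPM in the other siEgr2 libraries. For H2-K1 replicate 3 was the lowest of all 12 libraries, at 22.5 CPM, and for H2-D1 as well, at 40.2 CPM, while for B2m it was the highest siEgr2 library, at 66.9 CPM.

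As a description over lists, the median position of the 6 IFIT and IFI genes, as log2 of CPM plus 0.5 relative to the siNC mean, was 0.62 in siEgr2 replicate 3 and 0.49 in replicate 5, and between -0.40 and -0.12 in the other siEgr2 libraries. For the 3 class I chains it was negative in all 6 siEgr2 libraries, from -0.45 to -0.18. For all 34 tested members it was 0.21 in replicate 3 and 0.067 in replicate 5, and -0.30 to -0.18 in the others, while the median over all tested genes was between -0.0014 and 0.0069 in the 6 siEgr2 libraries. In a fit that left out replicates 3 and 5 together, added once the values were known, the median log2 fold change of the members was -0.38. Gbp2, H2-K1, Parp14 and Tap2 were again the members called lower in that fit, and 0 were called higher. These libraries had the lowest Rn18s-rs5 shares of the siEgr2 group, 10.5% and 10.7%. Replicate 5 had the lowest total of all, while replicate 3 had the highest total of the siEgr2 group. In replicate 3 the summed microglial markers were at 34.2 CPM, against at most 25.8 CPM in the other siEgr2 libraries and 26.0 to 32.0 CPM in siNC. Replicates 3 and 5 were the 2 highest siEgr2 libraries for 2 of 5 tested microglial markers, 2 of 5 endothelial, 2 of 7 fibroblast and pericyte, 2 of 7 OL, 1 of 7 OL precursor, 0 of 8 astrocyte and 0 of 7 neuronal markers, and for 16 of the 34 members and 8.74% of all tested genes. The endothelial gene Cdh5 was at 6.18 and 5.89 CPM in this pair, between 0.941 and 1.71 CPM in the other siEgr2 libraries and between 1.93 and 3.14 CPM in siNC. The fibroblast genes Col1a2 (269 and 301 CPM, against 232 to 255 CPM) and Dcn (68.9 and 64.5 CPM, against 45.2 to 59.8 CPM) were also highest in the pair among the siEgr2 libraries. Other genes of these lists did not follow. Rgs5, of the fibroblast and pericyte list, was lowest in the pair (2.59 and 3.59 CPM, against 4.48 to 6.58 CPM). Endothelial Flt1 was at 0.556 and 0.384 CPM in the pair, against 0.374 to 1.79 CPM. The part of these in the members' levels was not tested.

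**Figure D3:**
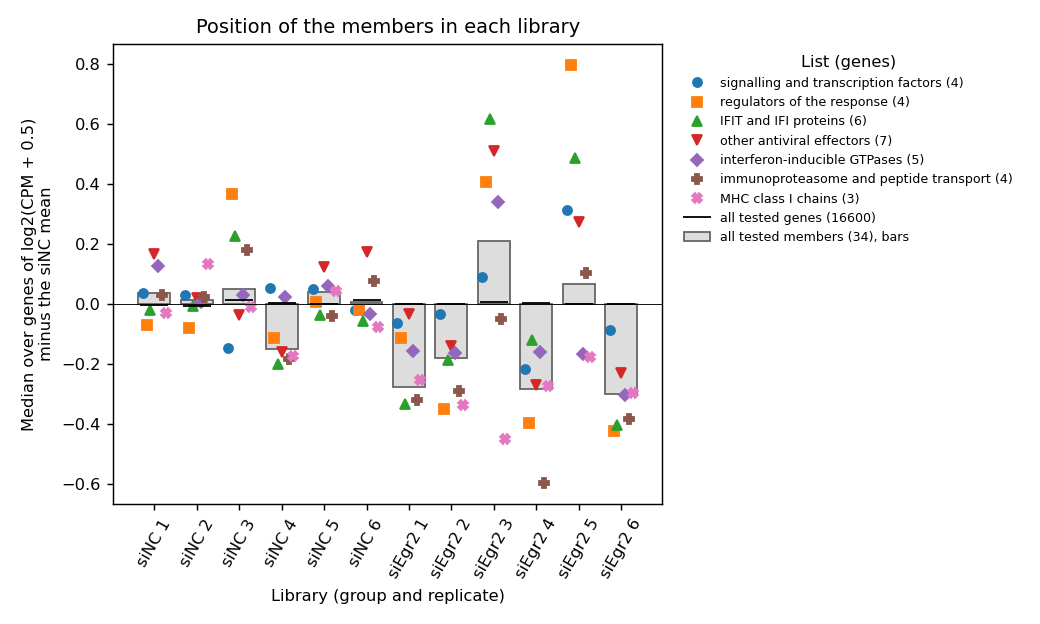
Median over the genes of each role list of log2(CPM + 0.5) minus the siNC mean (vertical axis) in each library (horizontal axis), with gray bars for all 34 tested members and a black dash for all 16600 tested genes. In siEgr2 replicates 3 and 5 the IFIT and IFI list lies at 0.62 and 0.49, while the class I chains lie below 0 in all siEgr2 libraries.

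**Figure D4:**
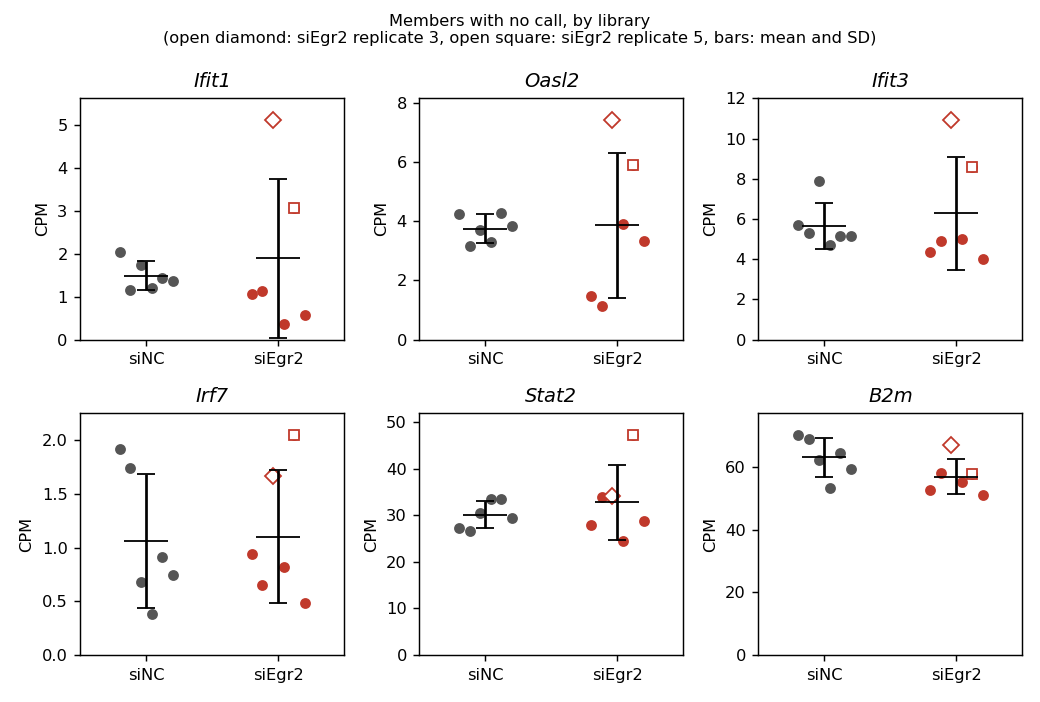
CPM (vertical axis, from 0) of 6 members that were not called, in each library, with mean and SD as bars, siEgr2 replicate 3 as an open diamond and replicate 5 as an open square. Ifit1, Oasl2 and Ifit3 are highest in these 2 libraries, and Stat2 is highest in replicate 5.

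The rest of the pathway was read from 9 lists with 131 genes, of which 87 were tested, 13 were called lower and 0 higher, with a median log2 fold change of -0.21. Over all tested genes, 5.08% were called lower and 2.63% higher. All 11 interferon ligand genes listed (among them Ifnb1, Ifng and 5 Ifna genes) had 0 counts in every library. For counting error only, this allows up to 3 counts per library. Scaled by the library total without TMM factors, that limit is 0.0762 to 0.105 CPM per siNC library and 0.180 to 0.373 CPM per siEgr2 library. The receptors had 0 calls among 5 tested. Ifnar1 was at a mean of 60.3 CPM in siNC and 61.9 CPM in siEgr2, and Ifngr1 at 28.7 and 29.8 CPM. Among the 3 receptor kinases, Jak1 passed the adjusted p with a log2 fold change of -0.14 (adjusted p = 0.0199, edgeR) and was not called.

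Of 14 tested sensors and adaptors, 3 were called lower. Ikbke, a kinase that activates interferon regulatory factors, was at 4.56 to 6.08 CPM in siNC and 1.06 to 4.41 CPM in siEgr2 (log2 fold change -1.24, adjusted p = 0.00443, edgeR). Tlr3, the endosomal receptor for double-stranded RNA, fell from a median of 18.9 to 11.4 CPM with no overlap (-0.80). Myd88, the adaptor of most Toll-like receptors, had a log2 fold change of -0.64 and overlapping groups. The 6 tested feedback regulators had 0 calls, with Ptpn2 (-0.41) and Socs3 (-0.13) past the adjusted p.

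Among 39 tested further interferon-stimulated genes, 8 were called lower and 0 higher, against 5.08% and 2.63% of all tested genes, and the median log2 fold change was -0.29. The largest falls among the 8 called genes were those of Gbp5, which lies beside Gbp7 on chromosome 3, from a median of 6.93 to 1.58 CPM (log2 fold change -2.06), of the chemokine gene Cxcl10, from 10.6 to 3.37 CPM (-1.64), and of Ifitm2, which blocks viral entry, from 46.0 to 27.3 CPM (-0.74). In each of these 3 genes the groups did not overlap. Pml passed the adjusted p in the other direction, at 0.48 (adjusted p = 0.0249, edgeR). Of 15 tested class I pathway genes, 2 were called lower, namely the third immunoproteasome subunit Psmb10 (-0.53) and the proteasome activator Psme2 (-0.50). Nlrc5, the transactivator of class I genes, had a log2 fold change of 0.049 (adjusted p = 0.874, edgeR), from 4.09 to 7.05 CPM in siNC and 4.72 to 8.48 CPM in siEgr2. The constitutive subunits Psmb5, Psmb6 and Psmb7 had a median log2 fold change of -0.025 with 0 calls. Class II pathway genes had 2 tested members and 0 calls.

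**Figure D5:**
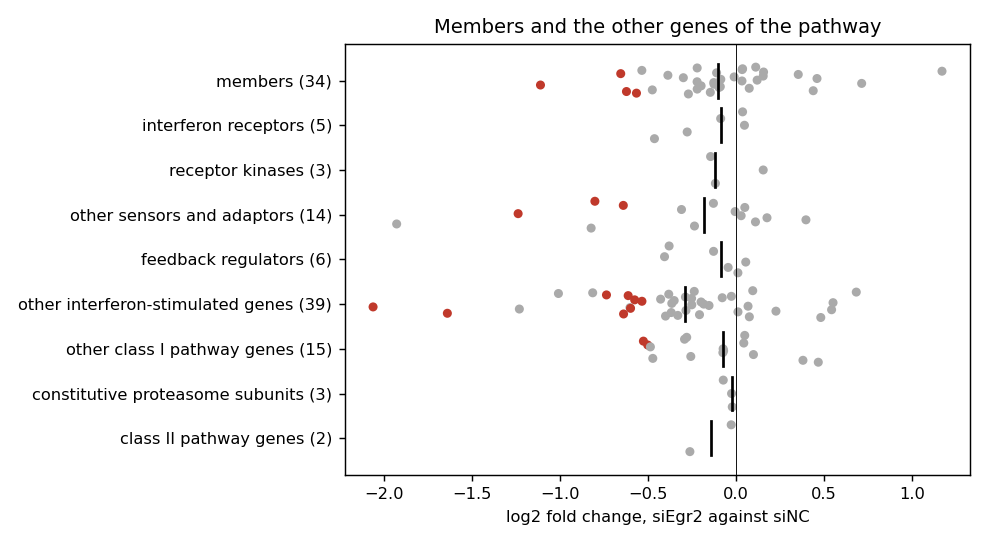
Log2 fold change of siEgr2 against siNC (horizontal axis) for the tested members and the tested genes of 8 pathway lists, with called genes in red and list medians as black bars. The called genes all lie to the left of 0, from Gbp5 at -2.06 to Psme2 at -0.50.

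Markers of cell types were also read. The summed levels of astrocyte, OL, OL precursor and neuronal markers did not overlap between the groups. Those of microglial, endothelial, and fibroblast and pericyte markers overlapped. Of 8 astrocyte markers, 5 were called lower (median log2 fold change -0.61), and their summed level was 7770 to 8453 CPM in siNC and 4912 to 5577 CPM in siEgr2. Of 7 OL precursor markers, 2 were called higher (median 0.26, summed level 4918 to 5141 and 5920 to 6057 CPM). Of 7 OL markers, 0 were called (median -0.21, 4912 to 5634 and 4657 to 4841 CPM). Of 12 microglial markers, 5 were tested with 0 calls and 7 stayed below 1 CPM in every library, with Cx3cr1 at 0 in siNC and Aif1 and Itgam at 0 in all libraries. The summed level was 26.0 to 32.0 CPM in siNC and 23 to 34.2 CPM in siEgr2. Of 8 lymphocyte markers, all stayed below 1 CPM. Endothelial markers had 1 of 5 tested genes called lower (summed 40.8 to 52.0 and 42.6 to 53.3 CPM), with Cldn5 at 0 in all libraries. Of the fibroblast and pericyte markers, Cspg4 is also on the OL precursor list and was called higher. Of the other 6 tested, 2 were called lower and 0 higher, all 6 fold changes were negative (median -0.36), and the summed level without Cspg4 was 590.4 to 1007 CPM in siNC and 597 to 741 CPM in siEgr2. Neuronal markers had 1 of 7 called lower (137 to 156 and 118 to 130 CPM). In bulk RNA, fewer cells of a type and less RNA per cell cannot be told apart, and the part of the astrocyte markers in the fall of Gbp2, Tap2, H2-K1 and Parp14 was not tested.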

How the data were processed

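RNA-seq was analyzed in 6 siNC and 6 siEgr2 libraries. The table the authors deposited holds unnormalized counts, a row for each symbol. The reads were 50 bp long, and the submitters' processing notes name the build mm10. The aligner, counter and strand setting are not given in the sources used here, so near copies and overlapping genes are uncertain. A single row without a name held 0 counts and was left out. Within groups the chi-square statistic per gene was 7.09 or more for every pair, so no library is a copy of another.

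The test was that of edgeR 4.0.16 under R 4.3.3 (filterByExpr, TMM, robust quasi-likelihood test, no covariate, Benjamini-Hochberg over all 16600 tested genes), at the thresholds of the methods of the study. Fold changes come from this fit, and its standard errors from the F statistic. CPM values were scaled by TMM, except the floors given for the interferon ligand genes, which used the library totals. Alternatives were RLE, upper-quartile and no scaling, 2 filters, DESeq2 1.42.0, limma-voom (limma 3.58.1), a replicate block, each library left out, thinning (fixed seed), structural RNA left out and no fold threshold. Coordinates and lengths are from GENCODE M21 (GRCm38), promoters from RefSeq (GRCm38.p6). The test was checked on simulated counts with known changes. The members, role lists, pathway lists and markers were chosen with earlier results of these data known. All members are named. A pair of listed genes outside the members and 1 promoter motif are not reported here. Per-library levels and statistics were given for members that were called or passed the adjusted p, the 6 with the largest fold changes, and the leads of each role. Of each pathway list up to 3 called genes were named. The pathway genes past the adjusted p alone, Ifit1, Oasl2, the ratios and the plotted uncalled members were chosen after the values were seen.

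Totals of 8034251 to 39383014 counts limit the precision for genes of few counts, most of all in siEgr2. Intervals and floors cover counting error only.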

Additional observations from a re-analysis of the deposited data

Results flagged for a closer look

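Over 68 groups of 6 values (34 tested members in 2 groups), 5 had a single library far from the other 5 by Dixon's criterion, and chance gives about 1 in 20, or 3.40. Of these, 3 lay in siNC replicate 3, where Parp14 was at 12.8 CPM while the rest of the group lay at 6.82 to 7.95 CPM, Ifit3 at 7.90 CPM against 4.71 to 5.73 CPM, and Usp18 at 1.45 CPM against 0.336 to 0.615 CPM. Gbp2 was at 25.0 CPM in siNC replicate 2, with the rest of siNC at 31.2 to 33.6 CPM, and this library was still above every siEgr2 library. Igtp was at 5.50 CPM in siEgr2 replicate 3, against 3.07 to 3.83 CPM in the other siEgr2 libraries.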

How the results depend on the processing

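Gbp2, H2-K1 and Tap2 were called lower in all 23 alternative fits, with log2 fold changes from -1.29 to -1.06, from -0.75 to -0.51 and from -0.80 to -0.53, and Parp14 in 22 of them. Members called lower numbered 3 to 5 over the fits that left out 1 library, 3 without siNC replicate 3, where Parp14 was lost, and members called higher 0 to 1, with Usp18 without siNC replicate 3 and Tap1 without siEgr2 replicate 1. All called genes numbered 1114 to 1339 in those fits. With no fold threshold 1 member was higher and 3300 genes passed. With library size only, 1974 genes were called, of which 88.0% fell against 65.9% with TMM, the members' median was -0.28 and 6 members were called lower, with Ifih1 and Ifit2 added. Members with an unadjusted exact permutation p under 0.05 numbered 8, and 5 of 28 (17.9%, all genes 26.9%) after thinning, which leaves fewer counts. Without siEgr2 replicates 3 and 5 the members' median was -0.38, and 13 of the 35 members tested there (37.1%, all genes 30.6%) had such a p. That fit leaves out the libraries picked because many members were high in them. Same-numbered libraries did not deviate together (correlations -0.039 to 0.042), and with the replicate block 1124 genes and 4 members were called, with the members' median at -0.14. Depth limits genes of few counts, such as Mx1 and the OAS genes.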
